A study of Homo sapiens with 6 samples.

Results

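The 10 genes described here control passage through the G1 phase of the cell cycle: the D cyclins CCND1, CCND2 and CCND3, the E cyclins CCNE1 and CCNE2, the kinases CDK4 and CDK6, the CDK inhibitors CDKN1A and CDKN1B, and the transcription factor gene MYC. They were chosen by name, and all 10 were found among the 48644 gene rows of the expression table. RNA was measured in KYSE70, an established line of human esophageal squamous carcinoma cells, carrying a doxycycline-inducible pLKO-Tet-On hairpin against SOX2 (shSOX2) or TP63 (shTP63). There were 2 shSOX2 libraries at day 4 of 50 ng/ml doxycycline and 1 untreated shSOX2 library at day 0, and likewise 2 shTP63 libraries at day 4 and 1 untreated shTP63 library at day 0. All carried a stably expressed hairpin construct. The titles number the day 4 libraries 1 and 2 and both day 0 libraries 2. They are used here as replicate numbers, though they may instead tell hairpins of the same target apart. On that reading, hairpin 1 of each target was never measured untreated. Its day 4 change, and every mean or count over a day 4 pair, would then include a difference between hairpins. A line, and its own day 0, are named here by target only. A doxycycline-treated line without a hairpin was not analysed here, and the day changed together with doxycycline. Effects of doxycycline, of the 4 days and of the hairpin thus cannot be told apart within a line.

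In G1, D cyclins bind CDK4 or CDK6 and phosphorylate the retinoblastoma protein, which releases E2F transcription factors. E2F then drives CCNE1, CCNE2 and the genes of DNA synthesis, and cyclin E with CDK2 completes the phosphorylation. CDKN1A (p21) and CDKN1B (p27) bind cyclin-CDK complexes and restrain cyclin E with CDK2, while MYC promotes expression of growth and cell cycle genes. CCND1 lies in a chromosomal segment that is often amplified in squamous carcinomas, and CDKN1A is the classical cell cycle target of p53, whose relative p63 is the product of TP63.

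Promoter sequences are shown for both inhibitors, since CDKN1A carried the 1 difference among these genes that passed the test, and for CDK4, whose promoter held the most copies of the MYC-binding E-box among those read. Promoters were read from RefSeq (GRCh38.p14), 250 bases before to 50 bases after the annotated start, for 6 of the 10 genes, and CCND1, CCND2, CCNE2 and MYC are named only. The CDKN1A window is chr6:36678464-36678763 on the plus strand, with GC boxes (GGGCGG or CCGCCC) in capitals.
CDKN1A: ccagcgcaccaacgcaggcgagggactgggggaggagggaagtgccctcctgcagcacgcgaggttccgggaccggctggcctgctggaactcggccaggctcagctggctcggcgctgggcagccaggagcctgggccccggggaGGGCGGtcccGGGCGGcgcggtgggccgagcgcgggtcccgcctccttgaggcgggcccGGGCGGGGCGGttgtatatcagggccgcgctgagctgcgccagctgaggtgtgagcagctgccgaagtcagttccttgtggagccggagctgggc
The CDKN1B window is chr12:12717118-12717417 on the plus strand, with CCAAT boxes (CCAAT or ATTGG) in capitals.
CDKN1B: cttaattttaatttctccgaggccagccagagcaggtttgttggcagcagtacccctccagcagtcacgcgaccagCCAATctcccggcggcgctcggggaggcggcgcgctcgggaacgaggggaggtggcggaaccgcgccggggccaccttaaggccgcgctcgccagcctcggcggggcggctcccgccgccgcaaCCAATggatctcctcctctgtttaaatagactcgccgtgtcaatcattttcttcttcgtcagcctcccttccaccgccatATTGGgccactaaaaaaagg
The CDK4 window is chr12:57752261-57752560 on the minus strand, with E-boxes (CACGTG) in capitals.
CDK4: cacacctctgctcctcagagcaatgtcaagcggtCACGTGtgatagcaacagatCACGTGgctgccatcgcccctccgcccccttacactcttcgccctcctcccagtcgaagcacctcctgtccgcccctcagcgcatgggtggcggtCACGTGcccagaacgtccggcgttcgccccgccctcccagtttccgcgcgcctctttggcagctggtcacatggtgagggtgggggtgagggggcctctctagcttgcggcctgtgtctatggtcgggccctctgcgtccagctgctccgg
Both strands were searched, and overlapping copies were counted separately. The CDKN1A window held 4 GC boxes, of which the last pair overlap, and none of the other motifs searched. The CDKN1B window held 3 CCAAT boxes and 1 GC box. The CDK4 window held 3 E-boxes and 3 GC boxes, and that of CDK6 1 E-box and 3 GC boxes. Over 34943 promoters of this length, 44.87% held a GC box, 34.65% a CCAAT box and 7.23% an E-box. The p53 family decamer (RRRCWWGYYY, where R is A or G, W is A or T and Y is C or T) was in 6.64% of promoters. The E2F motif (TTTGGCGC, TTTCCCGC, TTTGCCGC or TTTCGCGC) was in 3.3% and the SOX motif (ACAAAG or ACAATG) in 24.5%. Of the 6 windows, 0 held the decamer or the E2F motif in these letters, and that of CCND3 held 2 copies of the SOX motif. Sequence outside the windows was not searched, so sites farther from the start would be missed. These matches describe the letters in the windows and are not evidence of binding.

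Values are given on the deposited scale, read as log2(RPKM + 1) with base 2 assumed, where RPKM is read density per kilobase, scaled to library size, and so is per length. On this scale a difference understates the change of low genes. SOX2 was at 4.67 and 5.65 in the induced shSOX2 libraries 1 and 2, against 6.25 in the uninduced one. TP63 was at 2.11 and 2.26 in the induced shTP63 libraries 1 and 2, against 3.99 in the uninduced one. Each target was thus lower in its own line at day 4, and neither difference passed the test against the day 0 library of its line (limma adjusted p = 0.469 for SOX2 and 0.131 for TP63). Set against induced shSOX2 cells, induced shTP63 cells had less TP63, a difference that passed (log2 difference -1.73 ± 0.26, limma adjusted p = 0.0467), while SOX2 had a log2 difference of 0.32 ± 0.37 (limma adjusted p = 0.621). SOX2 was at 5.41 and 5.55 in the induced shTP63 libraries 1 and 2, both above induced shSOX2 library 1 and below library 2. All 10 squamous markers were above 0 in every library, and their RPKM summed to 1184 and 987 in induced and 1976 in uninduced shSOX2 cells, and to 1223 and 2614 in induced and 3051 in uninduced shTP63 cells. The sum includes SOX2 and TP63 themselves, and in both uninduced libraries KRT5 and KRT6A carried most of it. KRT5 was at 8.39 to 11.01 and KRT14 at 0.66 to 2.70 over the 6 libraries. The keratin gene KRT6A was below day 0 in all 4 induced libraries, at 6.64 and 7.13 in induced and 9.61 in uninduced shSOX2 cells, and at 6.58 and 7.74 in induced and 10.31 in uninduced shTP63 cells. KRT13 was above day 0 in all 4, at 5.70 and 5.24 in induced and 4.51 in uninduced shSOX2 cells, and at 6.56 and 6.05 in induced and 5.54 in uninduced shTP63 cells. COL17A1 was likewise above day 0 in all 4, and PKP1 and SOX2 were below it in all 4. The table has no counts, so the depth behind a value is unknown and gives no interval. The uninduced shTP63 library had 16167 genes above 0, while the other 5 had 21530 to 23509, and it is the only control of its line. Mitochondrially encoded genes made up 2.16% and 1.27% of summed RPKM in the induced shTP63 libraries and 1.36% in the uninduced one, against 7.39% and 7.41% in the induced shSOX2 libraries and 9.43% in the uninduced one. Of 6 leukocyte and 3 endothelial markers in the table the summed RPKM was at most 0.415 and 0.821 in any library. Of 6 fibroblast markers the sum was 158 and 29.6 RPKM in induced and 10.3 in uninduced shSOX2 cells, and 58.7 and 93.0 RPKM in induced and 5.27 in uninduced shTP63 cells. COL3A1 carried most of it. COL1A1 was above day 0 in all 4 induced libraries, at 1.89 and 2.02 in induced and 1.49 in uninduced shSOX2 cells, and at 2.43 and 2.68 in induced and 1.54 in uninduced shTP63 cells. The other 4, DCN, LUM, COL1A2 and PDGFRB, were at 0 to 0.03 on the log2 scale. The part of these cell type markers and of the mitochondrial share in the results was not tested.

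Ordered by the mean over the 6 libraries, the levels were 5.49 for CDK4, 5.41 for CCND1, 4.63 for MYC, 4.32 for CDKN1A, 3.91 for CCND3, 3.66 for CDKN1B, 2.67 for CDK6, 1.96 for CCNE1, 0.95 for CCNE2 and 0.54 for CCND2. Of the 9 neighbouring pairs in this order, only CDKN1B and CDK6 had library ranges that did not overlap. CDK4 exceeded CCND1 in 3 of 6 libraries, and CDKN1A exceeded CCND3 in 3 of 6, so the order of these neighbours depended on the library. CDK6 exceeded CCNE1 and CCNE1 exceeded CCNE2 in 6 of 6. CDK4 and CCND1 lay above 95.8% and 95.5% of the 10536 tested genes by mean level. The genes tested were those with a mean RPKM of at least 1 over the 6 libraries, and 9 of the 10 passed this filter. CCND2, with a mean of 0.54 RPKM, did not. The largest ranges over the libraries, on the log2 scale, were 2.51 for CDKN1A, 2.00 for CCND1 and 1.46 for MYC, and the smallest was 0.36 for CCND3.

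**Figure D1:**
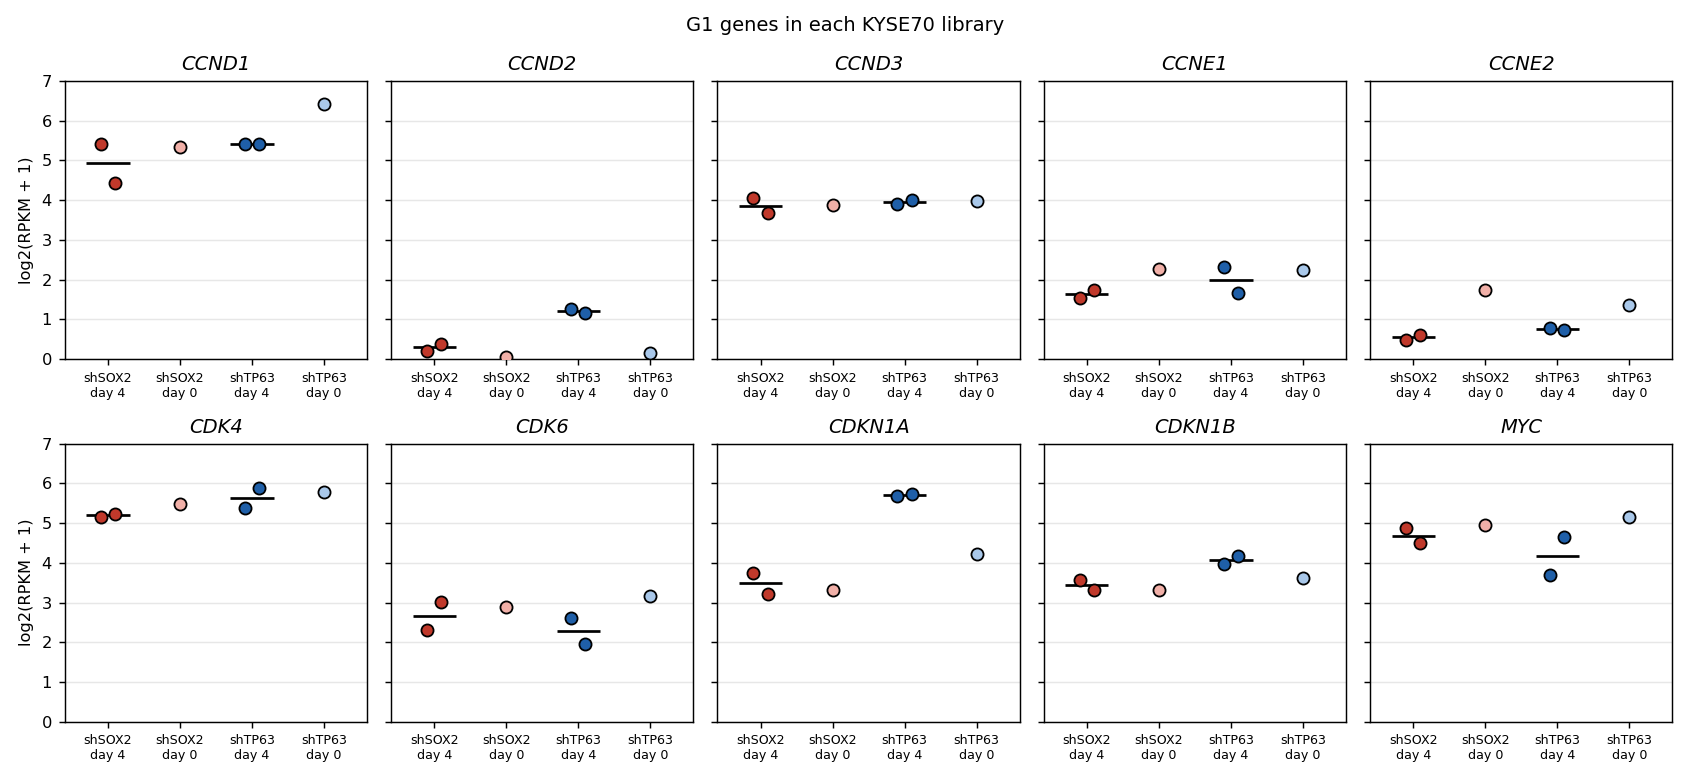
Level of each gene, as log2(RPKM + 1), in the 6 libraries; each point is a library and the short lines are means of the day 4 pairs. The induced shTP63 points of CDKN1A, at 5.67 and 5.73, stand above all 4 other libraries, and the points of CCND3 lie within 0.36 of each other.

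CDKN1A was the 1 gene of the 10 with a difference that passed a test. It was at 5.67 and 5.73 in the induced shTP63 libraries 1 and 2 and at 4.24 in the uninduced shTP63 library. In the shSOX2 line it was at 3.74 and 3.22 in the induced libraries 1 and 2 and at 3.32 in the uninduced library. Both induced shTP63 libraries were above every other library, and the uninduced shTP63 library was above all 3 shSOX2 libraries. Between the induced lines CDKN1A was higher with the TP63 hairpin than with the SOX2 hairpin by a log2 difference of 2.22 ± 0.30 (limma SE, n = 2 each, adjusted p = 0.0392), with a 95% interval of 1.52 to 2.92. Of all tested genes 0.759% passed in this comparison, 80 genes, and CDKN1A ranked 29 by p. The mitochondrial share of summed RPKM separated the same libraries, at 2.16% and 1.27% with the TP63 hairpin against 7.39% and 7.41% with the SOX2 hairpin, and its part in the result was not tested. In bulk RNA, fewer cells with a transcript and less of it per cell cannot be told apart. The call was lost without shSOX2 day 4 replicate 1 (limma log2 difference 2.48, adjusted p = 0.161) and without shSOX2 day 4 replicate 2 (1.96, adjusted p = 0.235). It was also lost with the number in the title as a block (adjusted p = 0.055) and with no filter on low values (adjusted p = 0.286), and the adjusted p ranged from 0.0202 to 0.286 over 12 alternatives.

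The uninduced libraries already differed by 0.92 in the same direction for CDKN1A, with 1 library each. Against its own day 0 the log2 change in shTP63 cells was 1.47 ± 0.37 (limma SE, day 4 n = 2, day 0 n = 1), 1.44 in replicate 1 and 1.50 in replicate 2. It did not pass (limma adjusted p = 0.167), and its 95% interval was 0.61 to 2.33. With the day 0 libraries pooled as the control it was 1.93 and passed (limma adjusted p = 0.0298), and against the shSOX2 day 0 library alone, a setting chosen after seeing the data, it was 2.39 and fell short (limma adjusted p = 0.0511). In shSOX2 cells the log2 change was 0.17 ± 0.37 (limma adjusted p = 0.893), with 0.43 in replicate 1 and -0.09 in replicate 2. Subtracting the response of the shSOX2 line from that of the shTP63 line gave 1.30 ± 0.52, which limma did not call (adjusted p = 0.995).

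CDKN1B, the other inhibitor gene of the same family, was at 3.96 and 4.18 in induced shTP63 cells and at 3.62 in uninduced ones. It was at 3.57 and 3.32 in induced shSOX2 cells and at 3.32 in uninduced ones. Its induced shTP63 libraries were also above every other library, by a smaller margin. The log2 change in shTP63 cells was 0.46 ± 0.34 (limma adjusted p = 0.574), and the difference between the induced lines was 0.63 ± 0.28 (limma adjusted p = 0.228). Neither passed. The 95% interval of the difference between the induced lines ran from -0.02 to 1.27.

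Turned back to linear RPKM with the base of 2 and the added 1 removed, the inhibitor genes summed to 64.6 and 69.3 in induced shTP63 cells and 29.1 in uninduced ones. They summed to 23.3 and 17.4 in induced shSOX2 cells and 17.9 in uninduced ones. CDKN1A made up 77.4% and 75.2% of that sum in induced shTP63 cells and 61.3% in uninduced ones, against 53.3% and 48.0% in induced shSOX2 cells and 50.0% in uninduced ones. The inhibitor transcripts were thus about equally shared in the shSOX2 line, and CDKN1A was the larger part in all 3 shTP63 libraries. On the log2 scale CDKN1A stood above CCND1 by 0.26 and 0.32 in induced shTP63 cells and below it by 2.19 (a difference of -2.19) in uninduced ones. In the shSOX2 line CDKN1A minus CCND1 was -1.68 and -1.20 in induced and -2.03 in uninduced cells.

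By the root mean square difference between profiles centred on their own mean over the 6 libraries, the 3 tested genes nearest to CDKN1A were ID4 at 0.19, ID3 at 0.20 and ID1 at 0.25, where the median tested gene was at 1.06. All 3 encode inhibitor of DNA binding proteins, which sequester basic helix-loop-helix transcription factors. ID1 was at 7.13 and 7.23 in induced shTP63 cells and 6.18 in uninduced ones, and at 5.78 and 5.30 in induced shSOX2 cells and 5.21 in uninduced ones. ID3 was at 7.42 and 7.71 in induced shTP63 cells and 6.24 in uninduced ones, and at 5.95 and 5.43 in induced shSOX2 cells and 5.02 in uninduced ones. Like CDKN1A, both were highest in the induced shTP63 libraries and next in the uninduced shTP63 library. ID4 was lower in level, at 2.86 and 3.00 in induced and 1.81 in uninduced shTP63 cells, and at 0.98 and 0.52 in induced and 1.01 in uninduced shSOX2 cells. These genes were picked for their likeness over 6 libraries from 2 lines, which share line and day with each other.

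**Figure D2:**
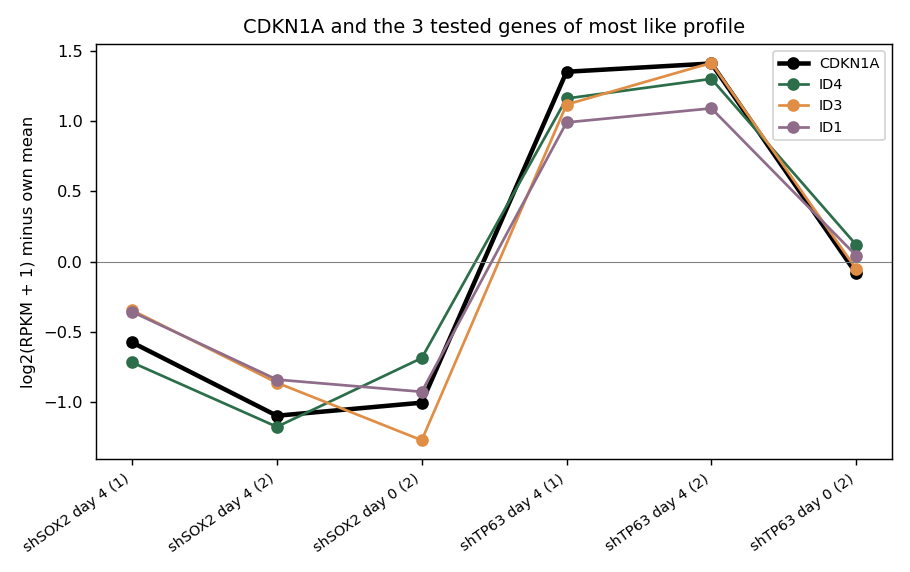
Profiles of CDKN1A and the 3 tested genes of most like profile over the 6 libraries, each as log2(RPKM + 1) minus its own mean; numbers in parentheses are those of the titles. The 4 lines run close together, at their highest in the induced shTP63 libraries, with root mean square differences from CDKN1A of 0.19 to 0.25.

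Among the D cyclins, CCND1 was the most abundant in every library. CCND1 was at 5.42 and 5.41 in induced shTP63 cells (replicates 1 and 2) and at 6.43 in uninduced ones. It was at 5.42 and 4.42 in induced shSOX2 cells and at 5.34 in uninduced ones. The uninduced shTP63 library was thus the highest, induced shSOX2 replicate 2 the lowest, and the other 4 lay within about 0.1 of each other. The log2 change was -1.01 ± 0.46 in shTP63 cells (limma adjusted p = 0.356) and -0.42 ± 0.46 in shSOX2 cells (limma adjusted p = 0.765), and neither passed. The value in shTP63 cells rests on its day 0 library, which was 1.08 above the uninduced shSOX2 library. Against that other day 0 library it was 0.07. In shSOX2 cells CCND1 was 0.92 below day 0 in replicate 2 (a difference of -0.92) and 0.08 above it in replicate 1.

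CCND2 was near the bottom of the scale, at 1.27 and 1.15 in induced shTP63 cells and 0.16 in uninduced ones. In shSOX2 cells it was at 0.20 and 0.38 in induced and 0.06 in uninduced libraries. Both induced shTP63 libraries were above all the others, which stayed under 0.4. In linear terms it was at 1.41 and 1.22 RPKM in induced shTP63 cells and at 0.119 RPKM in uninduced ones. The smallest value above 0 in that uninduced library was 0.14 on the log2 scale, so CCND2 lay close to its floor there. Fitted with no filter on low values, its log2 change was 1.05 ± 0.15 in shTP63 cells (limma adjusted p = 0.155) and 0.23 ± 0.15 in shSOX2 cells (limma adjusted p = 0.771). The difference between the induced lines was 0.92 ± 0.12 (limma adjusted p = 0.286), and none of these passed. CCND2 passed the filter in neither setting with a minimum, so no other fit includes it.

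CCND3 was the steadiest of the 10 genes, at 3.89 and 4.01 in induced and 3.98 in uninduced shTP63 cells, and at 4.04 and 3.68 in induced and 3.87 in uninduced shSOX2 cells. Its log2 change was -0.03 ± 0.35 in shTP63 cells (95% interval -0.84 to 0.78, limma adjusted p = 0.977) and -0.01 ± 0.35 in shSOX2 cells (95% interval -0.82 to 0.80, limma adjusted p = 0.995). The intervals are wide, and changes of up to about 0.8 in either direction lie within them. The D cyclins summed to 56.9 and 57.9 RPKM in induced shTP63 cells and 99.9 RPKM in uninduced ones, against 57.6 and 32.6 RPKM in induced shSOX2 cells and 53.2 RPKM in uninduced ones. CCND1 made up 73.2% and 71.8% of the sum in induced and 85.1% in uninduced shTP63 cells, and 72.8% and 62.8% in induced and 74.3% in uninduced shSOX2 cells. CCND2 was at most 2.47% of it in any library.

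**Figure D3:**
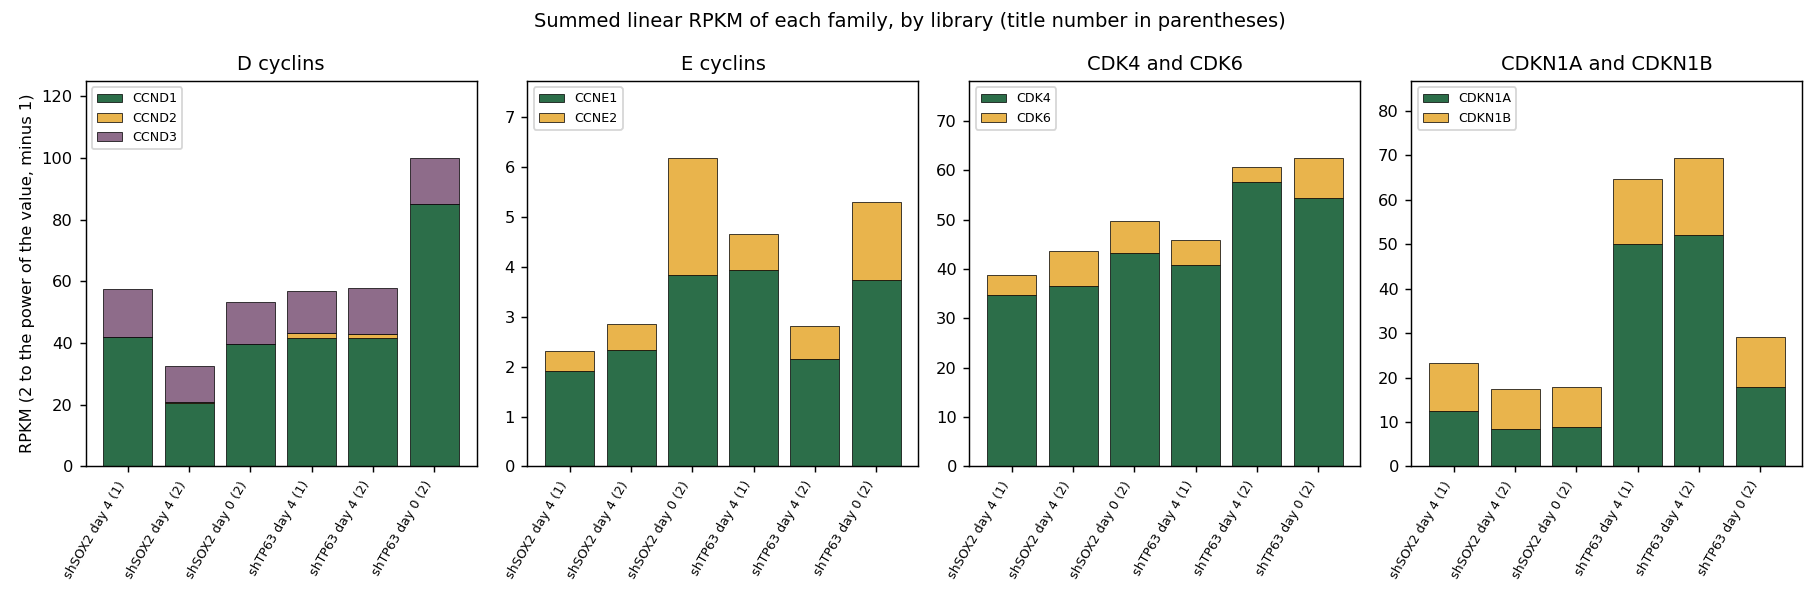
Linear RPKM of the D cyclins, the E cyclins, the D cyclin partner kinases and the inhibitors, stacked by gene, in each of the 6 libraries (title numbers in parentheses). The inhibitor sum is highest in the induced shTP63 libraries, at 64.6 and 69.3, and the D cyclin sum in the uninduced shTP63 library, at 99.9.

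CDK4 was at 5.38 and 5.88 in induced and 5.79 in uninduced shTP63 cells, and at 5.16 and 5.23 in induced and 5.47 in uninduced shSOX2 cells. Both induced shSOX2 libraries were below their day 0 by 0.2 to 0.3, while the induced shTP63 libraries lay on either side of theirs. The log2 change was -0.16 ± 0.37 in shTP63 cells (limma adjusted p = 0.870) and -0.27 ± 0.37 in shSOX2 cells (limma adjusted p = 0.809). CDK6, which serves the same D cyclins, was at 2.62 and 1.97 in induced and 3.18 in uninduced shTP63 cells. It was at 2.32 and 3.02 in induced and 2.90 in uninduced shSOX2 cells. Both induced shTP63 libraries were below their day 0, and the induced libraries of the different lines overlapped. The log2 change of CDK6 was -0.88 ± 0.43 in shTP63 cells (limma adjusted p = 0.386) and -0.23 ± 0.43 in shSOX2 cells (limma adjusted p = 0.872), and neither passed. With a pseudocount of 5 they were -0.54 and -0.13. CDK6 made up 4.80% to 16.3% of the CDK4 and CDK6 sum over the 6 libraries, with its lowest share in induced shTP63 replicate 2.

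CCNE2, an E2F target, was at 0.48 and 0.60 in induced shSOX2 cells and at 1.74 in uninduced ones. It was at 0.79 and 0.73 in induced shTP63 cells and at 1.36 in uninduced ones. All 4 induced libraries were below both day 0 libraries, and the 2 libraries of each day 4 pair lay close together. With a mean of 1.04 RPKM, CCNE2 passed the filter only through its day 0 libraries, at 2.35 RPKM in shSOX2 and 1.57 RPKM in shTP63 cells. Its induced libraries were at 0.40 to 0.72 RPKM, so the filter favoured lower values at day 4 for this gene. The log2 change was -1.20 ± 0.27 in shSOX2 cells (limma adjusted p = 0.323) and -0.60 ± 0.27 in shTP63 cells (limma adjusted p = 0.355). For so low a gene the size depends on the pseudocount: with 0.25 and 5 in place of 1 it was -1.88 and -0.43 in shSOX2 cells, and -0.95 and -0.21 in shTP63 cells, and none of these passed. Averaged over both lines it was -0.90 ± 0.19 and missed the threshold (limma adjusted p = 0.0852). Of the day 4 libraries, 4 of 4 were lower than day 0 of the same target. The adjusted p of that average ranged from 0.0692 to 0.186 over 10 alternatives. The difference between the responses was 0.60 ± 0.38 (limma adjusted p = 0.995).

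CCNE1 was at 1.54 and 1.74 in induced and 2.27 in uninduced shSOX2 cells, and at 2.30 and 1.65 in induced and 2.24 in uninduced shTP63 cells. Both induced shSOX2 libraries were below their day 0, and the induced shTP63 libraries lay on either side of theirs. The log2 change was -0.63 ± 0.36 in shSOX2 cells (limma adjusted p = 0.564) and -0.26 ± 0.36 in shTP63 cells (limma adjusted p = 0.780). With a pseudocount of 5 these were -0.31 and -0.13. CCNE2 made up 17.1% and 18.2% of the E cyclin sum in induced shSOX2 cells and 38.0% in uninduced ones, and 15.5% and 23.5% in induced shTP63 cells and 29.6% in uninduced ones. In both lines CCNE2 was thus a smaller part of the E cyclin transcripts at day 4 than at day 0.

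MYC was at 3.69 and 4.65 in induced shTP63 cells (replicates 1 and 2) and at 5.15 in uninduced ones. It was at 4.87 and 4.49 in induced shSOX2 cells and at 4.96 in uninduced ones. All 4 induced libraries were below both day 0 libraries, and shTP63 replicate 1 was the lowest. The log2 change was -0.98 ± 0.47 in shTP63 cells (limma adjusted p = 0.376) and -0.28 ± 0.47 in shSOX2 cells (limma adjusted p = 0.851). In shTP63 cells it was -1.46 in replicate 1 and -0.50 in replicate 2, so the size depended on the library. By the measure of likeness used for CDKN1A, genes near to MYC included ITGB1BP1 at 0.11 and C16orf53 at 0.13. Those nearest to CCND1 were AC018738.2 at 0.15, the mitochondrial protein gene HIGD1A at 0.16 and the macroH2A gene H2AFY at 0.16.

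Read together, 0 of the 9 tested genes passed limma at an adjusted p under 0.05 in shSOX2 cells, where 0% of all tested genes did, and 0 of 9 in shTP63 cells, where 0.019% did. At an unadjusted p under 0.05 there was 1 of 9 in shSOX2 cells, CCNE2, against 10.4% of all tested genes. CCNE2 passed the filter only through its day 0 libraries. There was 1 of 9 in shTP63 cells, CDKN1A, against 14.6%. For the average of both lines 0 of 9 passed, where 0.0569% of tested genes did, and 2 of 9 had an unadjusted p under 0.05, CCNE2 and CDKN1A, against 20.6%. For the difference between the responses 0 of 9 passed, where 0% did, and CDKN1A alone had an unadjusted p under 0.05, against 4.55%. Between the induced lines 1 of 9 passed, and its p was also the 1 unadjusted p under 0.05, against 23% of tested genes.

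By direction, CCND1, CCNE2, CDK6 and MYC were below day 0 in both induced shTP63 libraries, 4 of 9 tested genes against 38.5% of all tested genes. CDKN1A and CDKN1B were above it in both, 2 of 9 against 37.9%, as was CCND2, which was not tested. In shSOX2 cells CCNE1, CCNE2, CDK4 and MYC were below day 0 in both induced libraries, 4 of 9 against 40.2%. CDKN1B was above it in both, 1 of 9 against 33.3%, by 0.01 in replicate 2, and so was CCND2. These shares are near those of all tested genes or lower. In all 4 induced libraries CCNE2 and MYC were below day 0 of the same target, 2 of 9 against 23%. CDKN1B was above it in all 4, 1 of 9 against 19.4%. Should the title numbers mark hairpins, these same-direction counts partly compare different hairpins. In linear RPKM, counting no gene at 0 on day 0, CDKN1A was at least 2-fold above day 0 in both induced shTP63 libraries, 1 of 9 against 6.11% of tested genes. CCND1 and CCNE2 were at least 2-fold below it in both, 2 of 9 against 5.35%. CCND1 was close to this cut, at 41.7 and 41.5 RPKM in induced and 85.0 RPKM in uninduced shTP63 cells. It was at 39.5 RPKM in the uninduced shSOX2 library, so its place in this count rests on the shTP63 day 0 library. In shSOX2 cells 0 of 9 were at least 2-fold above day 0 in both induced libraries, against 5.06%, and CCNE2 was at least 2-fold below it in both, 1 of 9 against 2.1%. CCNE2, in these counts of lower genes, passed the filter only through its day 0 libraries. CCND2, not tested, was at least 2-fold above day 0 in both induced libraries of each line, but from values near the floor. In shSOX2 cells it was at 0.152 and 0.301 RPKM in induced and 0.044 RPKM in uninduced libraries. In the uninduced shTP63 library it was at 0.16 on the log2 scale, where the smallest value above 0 was 0.14. Between the induced lines, both shTP63 libraries were above both shSOX2 libraries for CCNE2, CDK4, CDKN1A and CDKN1B, 4 of 9 against 30.5%, and for CCND2. They were below both for 0 of 9 against 26.6%.

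**Figure D4:**
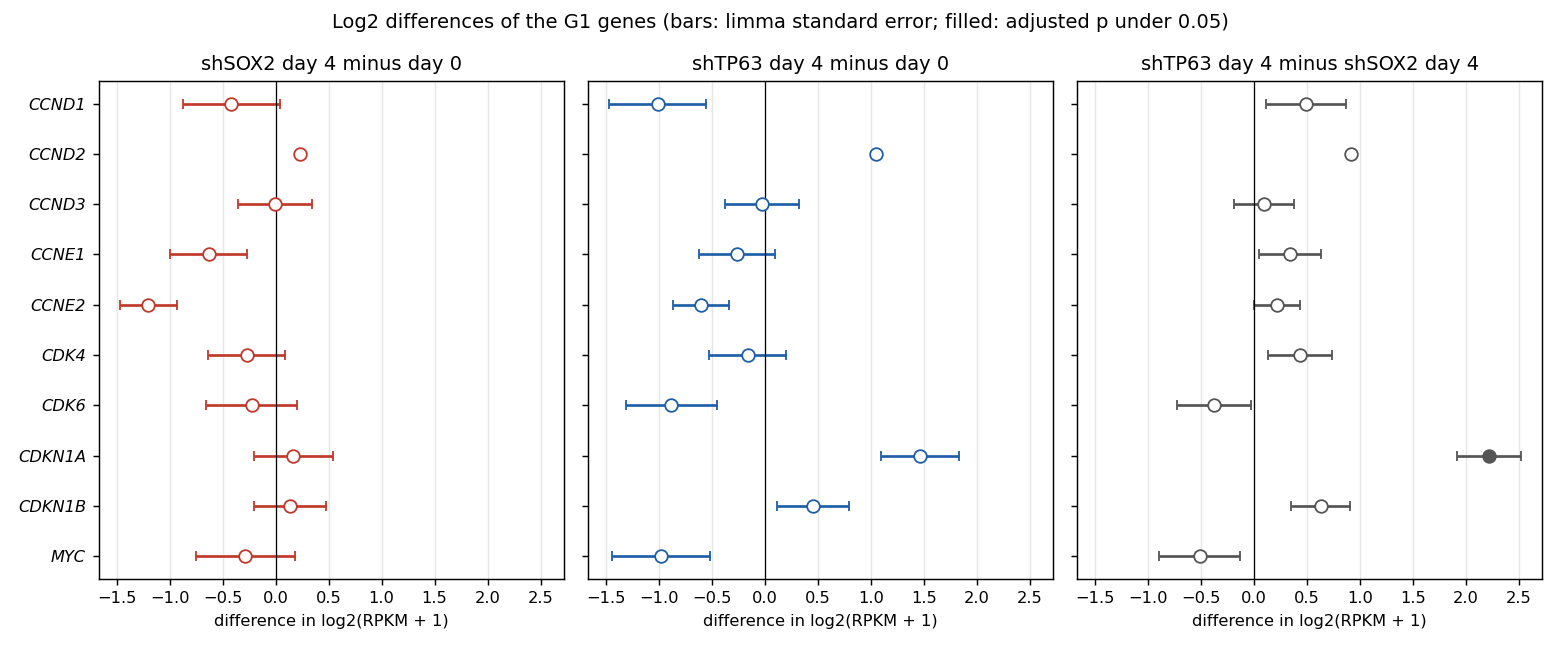
Difference in log2(RPKM + 1) for each gene in shSOX2 cells (left), in shTP63 cells (middle) and between the induced lines (right); bars are limma standard errors, and a filled point marks an adjusted p under 0.05. CDKN1A between the induced lines, at 2.22, is the 1 filled point; CCND2 has no bar because it was under the filter.

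The gene lists from here on were chosen with earlier results of these data known. Both induced libraries of a line are set against the same single day 0 library, so the counts are descriptions only. The other genes of the G1 machinery were read from a list of 47, all in the table, of which 39 were tested. Of these 39, 25 were below day 0 in both induced shTP63 libraries and 25 in both induced shSOX2 libraries, 64.1% each, against 38.5% and 40.2% of all tested genes. Above day 0 in both were 5 in shTP63 cells and 7 in shSOX2 cells, 12.8% and 17.9%, against 37.9% and 33.3% of all tested genes. The median log2 change was -0.32 in shTP63 and -0.30 in shSOX2 cells, against 0.0004 and -0.05 over all tested genes. By limma 0 of 39 passed in either line, and 10 in shTP63 and 5 in shSOX2 cells had an unadjusted p under 0.05, where 14.6% and 10.4% of all tested genes did. The cyclin A gene CCNA1 was at 2.28 and 1.88 in induced shTP63 cells and 3.24 in uninduced ones, and at 1.79 and 2.00 in induced shSOX2 cells and 3.59 in uninduced ones. CDC25A, the phosphatase that activates CDK2, had a log2 change of -1.31 ± 0.43 in shTP63 cells, and CCNA2, the S-phase cyclin A gene, one of -1.44 ± 0.49. In shSOX2 cells the repressive E2F gene E2F8 had a log2 change of -0.82 ± 0.29 and E2F2 one of -0.86 ± 0.33. E2F8 was at 0.77 and 1.04 in induced and 1.72 in uninduced shSOX2 cells. Like CCNE2, it passed the filter only through its day 0 libraries, so the filter favoured lower values at day 4. On the other side, CCNDBP1, which encodes a cyclin D1-binding protein, was at 2.88 and 2.59 in induced shTP63 cells and 1.08 in uninduced ones, a log2 change of 1.66 ± 0.34. The E2F partner gene TFDP2 had 0.91 ± 0.31 there. The retinoblastoma relative RBL2 had a log2 change of 0.57 ± 0.32 in shTP63 and 0.63 ± 0.32 in shSOX2 cells. In shSOX2 cells CDKN2D, an inhibitor of CDK4 and CDK6, had 0.32 ± 0.32, and FBXW7, which targets cyclin E and MYC proteins for degradation, 0.40 ± 0.42. In shTP63 cells CDKN2D went the other way, with a log2 change of -0.88, and FBXW7 had 0.18.

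Of 30 tested E2F target genes of S phase, 29 were below day 0 in both induced shTP63 libraries and 29 in both induced shSOX2 libraries, 96.7% each, against 38.5% and 40.2% of all tested genes. The medians were -1.24 in shTP63 and -0.72 in shSOX2 cells. By limma 0 of 30 passed in either line, and 26 in shTP63 and 9 in shSOX2 cells had an unadjusted p under 0.05, against 14.6% and 10.4% of all tested genes. UHRF1, a maintenance factor of DNA methylation, was at 1.77 and 2.09 in induced shTP63 cells and 4.19 in uninduced ones. Its log2 change there was -2.26 ± 0.34 (limma adjusted p = 0.113). The replication helicase genes CDC45 and MCM7 had log2 changes of -1.99 ± 0.36 and -1.78 ± 0.35 in shTP63 cells. In shSOX2 cells UHRF1 had -1.55 ± 0.34, the checkpoint mediator gene CLSPN -1.23 ± 0.31 and the licensing gene CDC6 -1.36 ± 0.34. The G1 list and this list share CCNA2 and MYBL2, and the G1 list also shares FBXW7 with the MYC network and CDC25A with the reported MYC targets.

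The 14 tested genes of the MYC network, its partners and antagonists, had medians of 0.12 in shTP63 and 0.11 in shSOX2 cells. Of these, 6 were above and 5 below day 0 in both induced shTP63 libraries, and 5 above and 4 below in both induced shSOX2 libraries. These are 42.9% and 35.7% in shTP63 cells, against 37.9% and 38.5% of all tested genes, and 35.7% and 28.6% in shSOX2 cells, against 33.3% and 40.2%, so they lie near the background. By limma 0 of 14 passed in either line, and 3 in shTP63 and 4 in shSOX2 cells had an unadjusted p under 0.05, against 14.6% and 10.4%. MYCL1, a MYC relative, was at 2.26 and 2.05 in induced shTP63 cells and 0.99 in uninduced ones, and at 1.79 and 2.16 in induced shSOX2 cells and 1.01 in uninduced ones. MXD4, which competes with MYC for MAX, was at 3.00 and 3.85 in induced shTP63 cells and 1.67 in uninduced ones. PIM1, a kinase gene, had a log2 change of 0.85 ± 0.43 in shTP63 and 1.17 ± 0.43 in shSOX2 cells, and the glucose-responsive factor MLXIPL 0.98 ± 0.34 in shSOX2 cells. On the lower side, AURKA, a mitotic kinase gene, had a log2 change of -1.18 ± 0.35 in shTP63 and -0.66 ± 0.35 in shSOX2 cells, and MLX one of -0.47 ± 0.32 and -0.92 ± 0.32. TRRAP, a MYC cofactor gene, had -0.31 ± 0.32 in shTP63 cells, and the obligate MYC partner MAX -0.46 ± 0.32 in shSOX2 cells.

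Of 25 tested genes reported as MYC targets, 23 were below day 0 in both induced shTP63 libraries and 23 in both induced shSOX2 libraries, 92% each, against 38.5% and 40.2% of all tested genes. The medians were -0.79 in shTP63 and -0.71 in shSOX2 cells, and by limma 0 of 25 passed in either line, with 10 and 5 at an unadjusted p under 0.05, against 14.6% and 10.4% of all tested genes. The spermidine synthase gene SRM was at 4.43 and 4.63 in induced shTP63 cells and 5.82 in uninduced ones. The nucleolar genes NOP58 and NOP56 had log2 changes of -1.27 ± 0.35 and -1.14 ± 0.34 in shTP63 cells. In shSOX2 cells the translation factor gene EIF4A1 had -1.10 ± 0.32, the nucleolin gene NCL -1.24 ± 0.37 and the ornithine decarboxylase gene ODC1 -1.23 ± 0.38. SHMT2, of serine metabolism, was the 1 gene above day 0 in both induced shSOX2 libraries, at 5.05 and 5.64, against 5.04 in the uninduced library.

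Of 22 tested p53 targets besides CDKN1A, 11 were above and 7 below day 0 in both induced libraries, with the same counts in each line. The share above, 50%, compares with 37.9% of all tested genes in shTP63 and 33.3% in shSOX2 cells, and the share below, 31.8%, with 38.5% and 40.2%. The medians were 0.08 in shTP63 and 0.15 in shSOX2 cells. By limma 0 of 22 passed in either line, and 4 in shTP63 and 6 in shSOX2 cells had an unadjusted p under 0.05, against 14.6% and 10.4% of all tested genes. BTG2, an antiproliferative gene, was at 4.21 and 4.97 in induced shTP63 cells and 2.61 in uninduced ones, and at 3.93 and 3.33 in induced shSOX2 cells and 2.08 in uninduced ones. TP53INP1 had a log2 change of 1.04 ± 0.27 and the RNA-binding protein gene ZMAT3 one of 0.55 ± 0.29 in shTP63 cells. SESN2, a stress-induced inhibitor of mTORC1, had 1.34 ± 0.33 and the kinase gene PLK2 1.23 ± 0.37 in shSOX2 cells. In shTP63 cells SESN2 had 0.35 and PLK2 -0.45. On the lower side in shTP63 cells, PLK3 had -1.13 ± 0.29, the exonuclease gene AEN -1.24 ± 0.32 and the apoptosis effector gene BAX -0.75 ± 0.33. In shSOX2 cells SFN, which encodes 14-3-3 sigma, had -0.80 ± 0.34, AEN -0.73 ± 0.32 and PLK3 -0.35 ± 0.29. CDKN1A in shTP63 cells, at 1.47, was thus accompanied by p53 targets on both sides of 0.

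**Figure D5:**
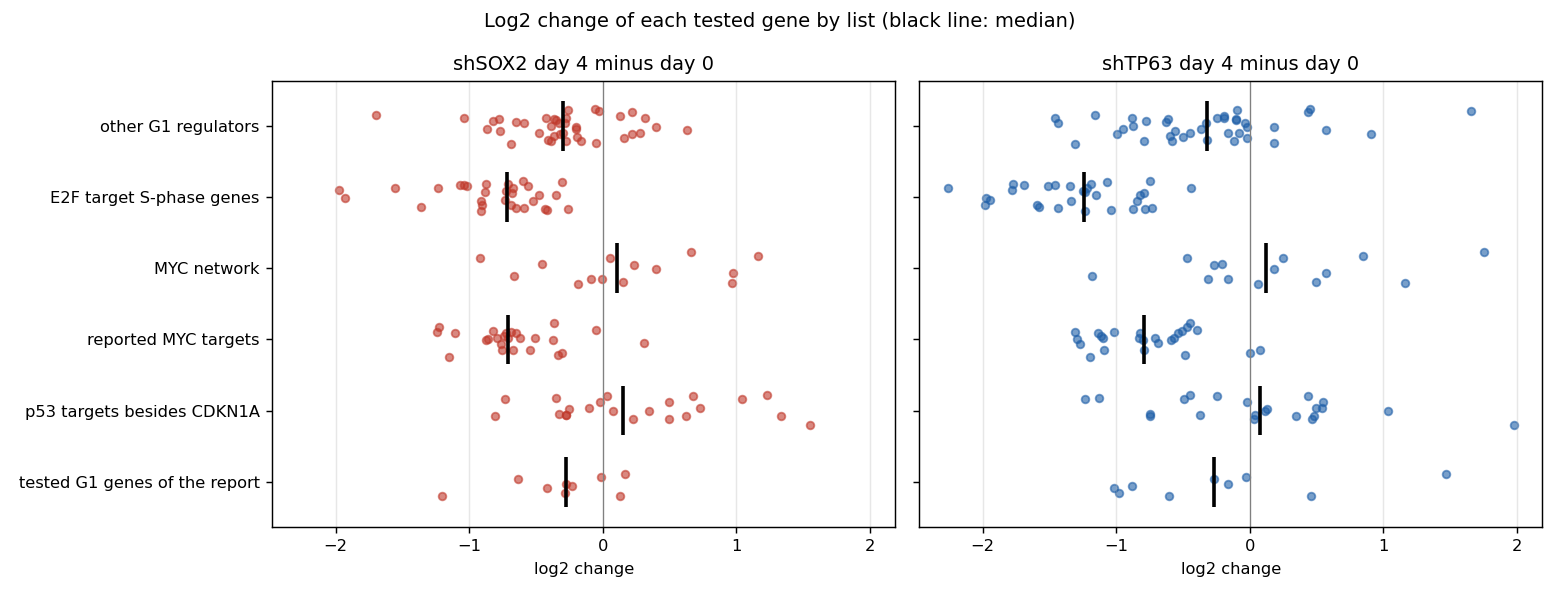
Log2 change of each tested gene against day 0 of its line, by list, in shSOX2 cells (left) and shTP63 cells (right); each point is a gene and the black lines are medians. Nearly all points of the E2F targets and of the reported MYC targets lie below 0 in both lines, while the p53 targets lie on both sides.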

How the data were processed

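The authors deposited 1 table of 6 value columns, which they named as RPKM. Every column has its lowest value at 0 and its highest at 13.36. Values above 0 fall on whole steps of 1/7000 in 82.9% of cases and of 1/14000 in 100%, with a tolerance of 0.01 steps. The deposited values were read as log2(RPKM + 1) after quantile normalization between libraries. They are not equal in distribution at the low end, where 16167 to 23509 genes were above 0 by library. Steps of 1/7000 may come from a mean over 7 columns, though the table holds 6. Base 2 is assumed, and depth cannot be recovered. Genome build hg19 is named in the submitters' processing notes; aligner, counter and annotation: not given in the sources used here. Without a stated strand-specific step, overlapping genes may share reads.

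The 10536 genes whose RPKM averaged at least 1 across libraries were tested. limma 3.58.1 (R 4.3.3) was fitted to the log2 values with 4 group means, all 6 libraries and a mean-variance trend (2 residual and 5.53 prior degrees of freedom), so that the single day 0 library of a line borrows its spread from the day 4 pairs. Two-sided p-values were Benjamini-Hochberg adjusted over all tested genes and called under 0.05. The fit was run on simulated data with independent errors drawn from its own model of the spread. That run does not show how the test performs on these libraries. No label says that libraries are separate cultures, so the p-values reflect spread between these samples alone, possibly technical. Members, lists and tests were chosen with earlier results of these data known. All 10 members are named. From each list, called genes are named, or else up to 3 per direction by smallest p with the same sign in both day 4 libraries. For the 3 members of largest range the 3 genes of most like profile are named, except 1 that is not reported here.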

Additional observations from a re-analysis of the deposited data

How the results depend on the processing

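Of 548 values for single genes under alternatives, 518 kept their direction and side of the threshold, 25 had the other sign, 4 lost a call and 1 gained it. In many of them the sign could not change, because the log2 change is that of the main fit. These include the changed filters, no mean-variance trend, fits to part of the libraries and a library left out of the other line. CDKN1A between the induced lines was the only call in the main fit, so the 518 is no measure of robustness. The 4 and the 1 belong to CDKN1A and are given with it above. No other call was held by any of the 10 genes; their number between the induced lines was 0 with no filter on low values and 0 with the replicate block, and it was 0 to 1 when 1 library was left out. In shTP63 cells it was 1 with the day 0 libraries pooled. The causes were not tested.

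Counts over all genes moved widely. In shSOX2 cells limma called 1 gene with a pseudocount of 5, 11 with the 3 libraries of the line alone, 2 with both day 0 libraries as the control, 4 against the uninduced shTP63 library and 0 to 11 without 1 library. In shTP63 cells it called 154 with no filter, 1 at a mean RPKM of at least 5, 0 with the 3 libraries of the line alone, 291 with both day 0 libraries, 50 against the other day 0 library and 0 to 80 without 1 library. For the mean of both lines it called 79 with a pseudocount of 0.25, 0 with no filter, 1 at a mean RPKM of at least 5, 62 with median-ratio scaling and 0 to 263 without 1 library. Between the induced lines it called 30 with a pseudocount of 5, 0 with no filter, 44 at a mean RPKM of at least 5 and 0 to 324 without 1 library, and for the difference between responses 0 to 5. Without shSOX2 day 4 replicate 1 or 2 each of these counts was 0. Without shTP63 day 4 replicate 1 they were 11 in shSOX2 cells, 60 in shTP63 cells, 261 for the mean and 324 between the induced lines, and without replicate 2 they were 11, 80, 263 and 72, with 5 for the difference. The number in the titles was fitted as a replicate block, which gave 0 calls in shTP63 cells, 0 for the mean of both lines and 18 between the induced lines. The day 4 libraries of the same number did not deviate together (correlation -0.074 across tested genes), and the labels do not say what the number marks.

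Values of the other sign were small or rested on 1 library. In shSOX2 cells, leaving out 1 library gave CCND1 -0.918 to 0.083, CCND3 -0.19 to 0.17, CDK6 -0.58 to 0.12 and CDKN1A -0.093 to 0.43. In shTP63 cells it gave CCND3 -0.088 to 0.028, CCNE1 -0.59 to 0.0605 and CDK4 -0.41 to 0.082. Between the induced lines it gave CCND1 -0.011 to 0.99 and CCND3 -0.090 to 0.27, for the mean of both lines CCND3 -0.11 to 0.071, and for the difference between responses CCND3 -0.20 to 0.16 and CDK4 -0.14 to 0.36. With median-ratio scaling CCND3 was at 0.059 in shSOX2 cells, 0.053 in shTP63 cells and 0.056 on average. When the day 0 libraries were pooled as the control, CDKN1A was at -0.29 and CDKN1B at -0.020 in shSOX2 cells, and CCND3 at 0.026 in shTP63 cells. Against the other day 0 library, chosen after seeing the data, CDKN1A was at -0.75 and CDKN1B at -0.17 in shSOX2 cells, and CCND1 at 0.072, CCND3 at 0.083 and CDK4 at 0.16 in shTP63 cells.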
